A study of Homo sapiens with 6 samples.

Results

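The genes described here are 10 genes of the anaphase-promoting complex (APC/C) and its closest partners: the coactivators CDC20 and FZR1, the inhibitor FBXO5, the ubiquitin-conjugating enzymes UBE2C and UBE2S, the core subunits ANAPC1, CDC27 and CDC16, the anaphase inhibitor PTTG1 (securin) and the protease ESPL1 (separase). They were taken by symbol from the 35615 gene symbols of the count table, by a rule that reads names and not counts. All 10 were present and passed the filter on low counts. These genes and the lists below were chosen with earlier results of these data known, so their counts are not independent evidence. K562 is a human erythroleukaemia line from a patient with chronic myeloid leukaemia, whose growth depends on the BCR-ABL1 kinase. Each culture of 5 M K562 cells was electroporated (nucleofection) with a microRNA mimic at 500 pmol, either a mimic of hsa-miR-92a-1-5p (3 libraries, miR92a 1 to 3) or a negative-control mimic, which the labels call scramble (3 libraries, scramble 1 to 3). All 6 cultures, controls included, also received 1 µM imatinib, an inhibitor of that kinase, starting 4 h after nucleofection, with RNA extraction 24 h later. The labels name the mimic group a miR-92a overexpression and call the libraries biological replicates; cells kept free of imatinib are not analysed here.

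The APC/C is a ubiquitin ligase that times the exit from mitosis. CDC20 activates it at the metaphase to anaphase transition and FZR1 (also called CDH1) from late mitosis through G1, and both bring substrates to the complex. UBE2C places the first ubiquitins on a substrate and UBE2S extends the chain. FBXO5 (EMI1) blocks the complex in S and G2 phase. Once all chromosomes are attached, the CDC20-bound complex marks securin and the mitotic cyclins for destruction, which frees separase to cut cohesin so that sister chromatids part. Several of these genes are themselves transcribed mainly in G2 and M phase, so that in cultured cells their transcript levels also follow the share of dividing cells. In bulk RNA a smaller share of cells in a phase and less transcript per cell cannot be told apart. Proteins and ligase activity were not analysed here.

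Both strands of the microRNA bear on the comparison, because the mimic carries the sequence of the 5-prime strand of the miR-92a-1 hairpin, and the 3-prime strand is the one that usually accumulates. They are printed from RefSeq (GRCh38.p14, chromosome 13, plus strand, 91351324 to 91351346 and 91351361 to 91351382), with the seed, bases 2 to 8, in capitals.
hsa-miR-92a-1-5p: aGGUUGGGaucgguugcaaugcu
hsa-miR-92a-3p: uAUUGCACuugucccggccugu
The seed of the 5-prime strand pairs with CCCAACC in a transcript, called a 7mer-m8 match. An 8mer has an A after it, and a 7mer-A1 has that A but lacks the first base. For the 3-prime strand the matching bases are GTGCAAT.

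Of the 10 genes, UBE2S alone held a 7mer or 8mer match to miR-92a-1-5p in its longest annotated 3′ UTR (GENCODE release 29), against 16.9% (2173) of the 12888 tested genes whose 3′ UTR is annotated. That match is a 7mer-m8. In coding sequence CDC20 held an 8mer in its annotated reading frame (chromosome 1, plus strand, 43362281 to 43362288, GRCh38) and ESPL1 a 7mer-m8 (chromosome 12, plus strand, 53291755 to 53291761), a kind of match found in the coding sequence of 21.9% of the genes. CDC27 was the only one with a 7mer or 8mer match to miR-92a-3p in the 3′ UTR, an 8mer at 47120759 to 47120766 of chromosome 17 (minus strand), where 20.1% of the genes held one. In coding sequence ANAPC1 held an 8mer and FZR1 a 7mer-m8 match to that strand, against 10.3% of the genes. The sites of CDC20, ESPL1 and CDC27 are shown because the genes that hold them gave different results, described below; capitals mark the bases that match the seed.
CDC20 coding, miR-92a-1-5p: atttggaagtaCCCAACCAtggccaaggtg
ESPL1 coding, miR-92a-1-5p: tacgggctgtgCCCAACCcagccagagcga
CDC27 3′ UTR, miR-92a-3p: aatgaaaggcaGTGCAATAtttagctgcta
The remaining genes held no 7mer or 8mer match to the 5-prime strand in either region. A match is a description of the letters and does not show that the site is bound.

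Promoters of genes expressed in G2 and M phase often carry a cell cycle genes homology region (CHR), bound by the DREAM and MMB complexes, a short distance from CCAAT boxes, bound by NF-Y. Promoters of 9 of the 10 genes were in the RefSeq table (GRCh38.p14; UBE2C had none there). The CHR was searched on both strands as TTTGAA, as the variant TTCGAA and as the variant TTTAAA, and the box as the letters CCAAT, with overlapping matches counted separately. Both motifs lay in the 120 bases before a listed start of CDC20, ESPL1, FBXO5 and PTTG1, that is in 4 of 9 genes, against 258 (2.51%) of the 10265 tested genes and 767 (2.81%) of all 27305 genes in the table. The stretches of the first 3 are printed 5′ to 3′ on the gene's strand, since they show how close the motifs lie, with both motifs in capitals (TTCAAA and ATTGG are matches on the opposite strand); that of FBXO5 lies before its second listed start.
CDC20, chr1:43358871-43358934, plus strand: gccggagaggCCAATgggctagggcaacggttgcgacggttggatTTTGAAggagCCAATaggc
ESPL1, chr12:53268241-53268277, plus strand: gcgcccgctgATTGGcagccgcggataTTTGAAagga
FBXO5, chr6:152983063-152983149, minus strand: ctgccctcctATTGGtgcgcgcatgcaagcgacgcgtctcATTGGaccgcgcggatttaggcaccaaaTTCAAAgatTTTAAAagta
In PTTG1 the motif TTTAAA lay at 160421826 to 160421831 of chromosome 5 with a CCAAT box at 160421804 to 160421808. The promoters of FZR1, UBE2S, ANAPC1, CDC27 and CDC16 held no such combination in those 120 bases. Across the whole window of 300 bases a CHR alone is common, being found in 23.3% of tested genes, and a match here is not evidence of binding.

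Library totals were 24751862 to 25982085 estimated counts in 5 libraries and 704448 in miR92a 1, a depth 36-fold below the median of the others. Counts of the 10 genes in miR92a 1 ran from 0 (UBE2C) to 171 (CDC27), with a counting error of 7.65% to 14.3% for the 9 genes above 0. Both replicate 3 libraries stood apart from replicates 1 and 2: the mean chi-square per gene between scramble 1 and 2 was 4.83, and between either of them and scramble 3 at least 43. With the mimic it was 1.81 between the shallow miR92a 1 and miR92a 2, 4.65 between miR92a 1 and 3, and 43.8 between miR92a 2 and 3. The labels call the cells myeloblasts; of 8 myeloid markers MPO was at 0 in every library and ELANE had 1 count in all. The other 6 passed the filter, among them CD33 (350 to 524 counts in the deep libraries), AZU1 (43 to 116) and CSF3R (65 to 119). The summed level of the 8 was 26.6 to 30.6 CPM (per-million counts) in the controls. With the mimic it was 16.3 CPM in miR92a 1 and 26.6 and 22.8 CPM in miR92a 2 and 3. The value of miR92a 1 rests on few counts (CD33 11, CSF3R 1). AZU1, a granule protein, fell with the block (-1.04, edgeR adjusted p = 0.0323, and 0.571 by group alone). Its groups overlapped, and it had 0 counts in miR92a 1. CEBPA went the other way with the block (1.04, edgeR adjusted p = 0.246). By group alone 2 of the 6 were above 0 and 4 below. The part of AZU1 in the results below was not tested. Epithelial keratins KRT8 and KRT18 and EPCAM were present in every library, as part of a list of 5 with a summed level of 417 to 452 CPM in the controls and 385 to 483 CPM with the mimic. The rest of that list went otherwise. COL1A1 had 62, 94 and 56 counts in the controls and 0, 20 and 27 with the mimic, and COL1A2 did not pass the filter. With the block COL1A1 fell (-1.74, edgeR adjusted p = 0.00596, and 0.11 by group alone), and its part in the results below was not tested.

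Levels are CPM scaled by edgeR's trimmed mean of M-values (TMM). Fold changes are log2 values, mimic minus control, from edgeR's quasi-likelihood test over all 14543 genes that passed the filter, with a Benjamini-Hochberg adjusted p and a threshold of 0.05. The comparison asks which of these transcripts differed between cells given the miR-92a-1-5p mimic and cells given the control mimic. Deviations from group means were correlated between same-numbered libraries, most in replicate 3 (r = 0.63, 4829 abundant genes). Scramble 1 followed miR92a 2 (0.52) more than miR92a 1 (0.37), and the labels state no pairing. Scramble 2 with miR92a 1 had 0.25, so the correlations set replicate 3 apart but do not settle the pairing of numbers 1 and 2. Because of the correlations within numbers, most in replicate 3, a second fit adds the replicate number as a blocking factor. It stands beside the first where it changes a call.

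Separase transcript rose with the mimic, and transcripts of both coactivators, of the inhibitor FBXO5 and of securin rose in the fit with the block. UBE2S fell in the blocked fit. The core subunits ANAPC1, CDC27 and CDC16 passed in neither fit. By group alone 1 of the 10 genes was higher (ESPL1) and none lower, where 0.433% of all tested genes were higher and 0.976% lower. At an unadjusted p under 0.05 there were 4 higher and 1 lower, against 13.5% of all genes in either direction. With the block 5 of 10 were higher and 1 lower, against 4.57% and 6.7% of all tested genes, and the median log2 fold change of the 10 was 0.28 by group alone and 0.35 with the block (-0.01 for all tested genes in both). FZR1, FBXO5, PTTG1 and ESPL1, that is 4 genes, had each mimic library above each control library, a pattern shown by 9.73% of all genes, and none had the reverse, shown by 11.5%.

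**Figure D1:**
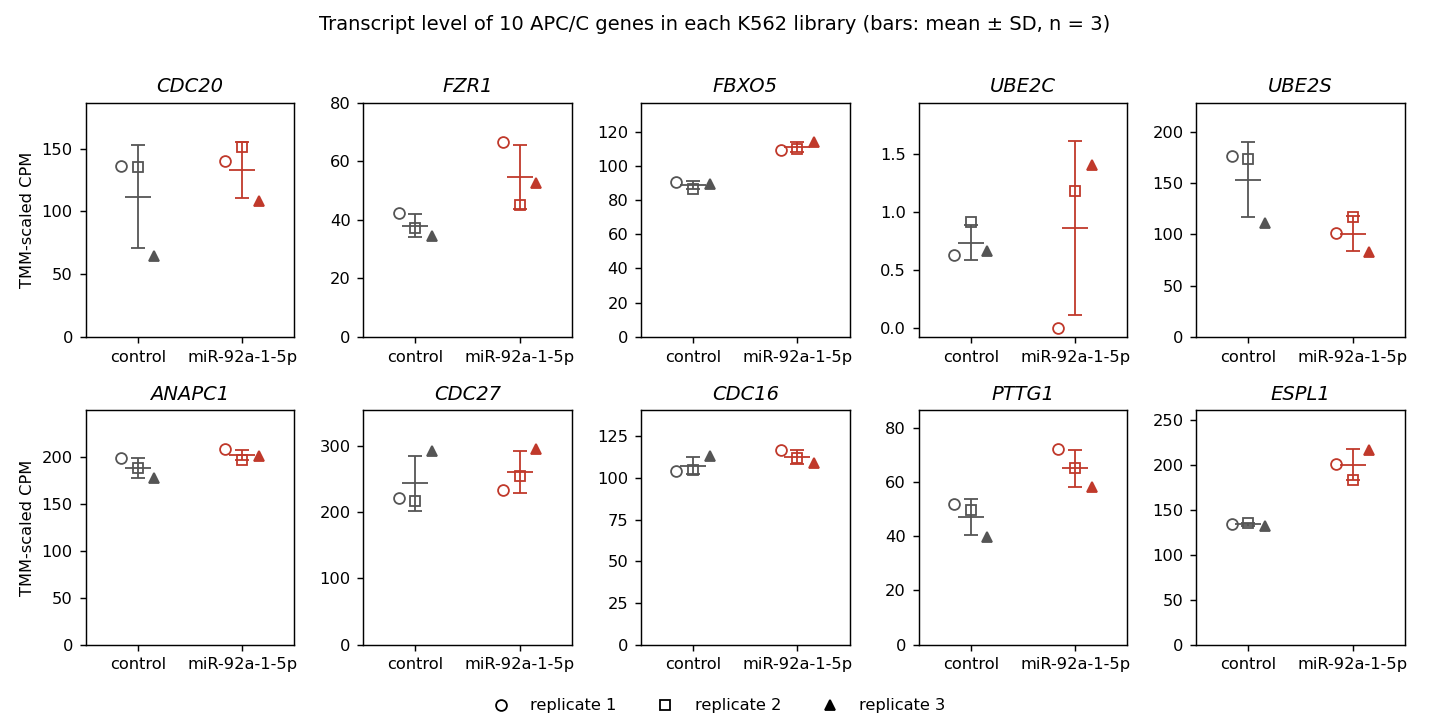
TMM-scaled CPM (vertical axis) of each gene in the 3 control libraries (grey) and the 3 miR-92a-1-5p mimic libraries (red). Bars give the mean and SD of each group, and the symbol is the replicate number. The axis starts at 0, or just below 0 for UBE2C. ESPL1 sits between 132 and 135 CPM in the controls and between 183 and 217 CPM with the mimic, whereas CDC20 is low in scramble 3 (64.5 CPM).

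ESPL1, the protease that cleaves cohesin at anaphase (ENSG00000135476.11, chromosome 12, 53268299 to 53293643), had 134, 135 and 132 CPM in scramble 1, 2 and 3 and 201, 183 and 217 CPM in miR92a 1, 2 and 3. The groups did not overlap, and the controls lay close together. Its mean was 134 ± 1.38 CPM (SD, n = 3) in the controls and 200 ± 17.2 CPM with the mimic, and the log2 fold change was 0.58 ± 0.09 (SE; edgeR adjusted p = 0.0231; 0.000102 with the block). The group-alone call was lost without scramble 1 (adjusted p = 0.128), scramble 2 (0.127), miR92a 1 (0.0932) or miR92a 3 (0.0515), while the blocked call held without any one numbered pair (adjusted p up to 0.00388).

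PTTG1, securin, the inhibitor and chaperone of separase (ENSG00000164611.12, chromosome 5, 160421822 to 160428744), had 52.1, 49.7 and 39.7 CPM in the controls and 72.1, 65.1 and 58.4 CPM with the mimic. Every mimic value was above every control value, and the replicate 3 library was the lowest of each group. The log2 fold change was 0.43 ± 0.14 by group alone (edgeR adjusted p = 0.207) and 0.47 ± 0.10 with the block (adjusted p = 0.00401). The log2 ratio of PTTG1 to ESPL1 counts inside a library was -1.37, -1.44 and -1.73 in the controls and -1.47, -1.49 and -1.89 with the mimic. The difference of -0.11 was smaller than the spread in either group (exact two-sided permutation test, p = 0.5; 0.667 adjusted over the 4 ratios computed), and it turned to 0.03 without miR92a 3. With 3 against 3 such a test cannot go below 0.1.

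FZR1, the coactivator of late mitosis and G1 (ENSG00000105325.13, chromosome 19, 3506273 to 3538330), had 42.3, 37.2 and 34.5 CPM in the controls and 66.7, 45.0 and 52.5 CPM with the mimic. The groups did not overlap, though miR92a 2 lay close to the highest control. The highest value, that of miR92a 1, rests on 49 counts. The log2 fold change was 0.46 ± 0.15 (edgeR adjusted p = 0.235) and 0.48 ± 0.11 with the block (adjusted p = 0.00777).

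CDC20, the coactivator of anaphase onset (ENSG00000117399.13, chromosome 1, 43358955 to 43363203), had 136, 135 and 64.5 CPM in the controls and 140, 151 and 108 CPM with the mimic. The groups overlapped, and replicate 3 was the lowest of both, at -1.07 (log2) against the mean of scramble 1 and 2 and at -0.43 against that of miR92a 1 and 2. The log2 fold change was 0.24 ± 0.27 by group alone (edgeR adjusted p = 0.788; 95% interval -0.39 to 0.87) and 0.36 ± 0.11 with the block (adjusted p = 0.0371). Without scramble 3 the group-alone value was -0.04, and in the blocked fit without the replicate 3 pair it was 0.14 (adjusted p = 0.379), so the CDC20 call rested on replicate 3.

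FBXO5, the pseudosubstrate inhibitor EMI1 (ENSG00000112029.9, chromosome 6, 152970519 to 152983579), had 90.8, 86.6 and 89.1 CPM in the controls and 109, 110 and 114 CPM with the mimic. It had a tight spread in both groups, with SDs of 2.11 and 2.79 CPM, and no overlap. The log2 fold change was 0.33 ± 0.08 (edgeR adjusted p = 0.123) and 0.33 ± 0.09 with the block (adjusted p = 0.0148; 0.256 without the replicate 2 pair). Relative to FZR1 in the same library, FBXO5 was at 1.10, 1.22 and 1.37 (log2 ratio of counts) in the controls and 0.70, 1.29 and 1.12 with the mimic. The groups of this ratio overlapped (difference -0.19, exact permutation p = 0.5; 0.667 adjusted). For CDC20 over FZR1 the ratios were 1.69, 1.86 and 0.90 in the controls and 1.06, 1.75 and 1.04 with the mimic, with a difference of -0.20 (exact permutation p = 0.9, also adjusted).

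**Figure D2:**
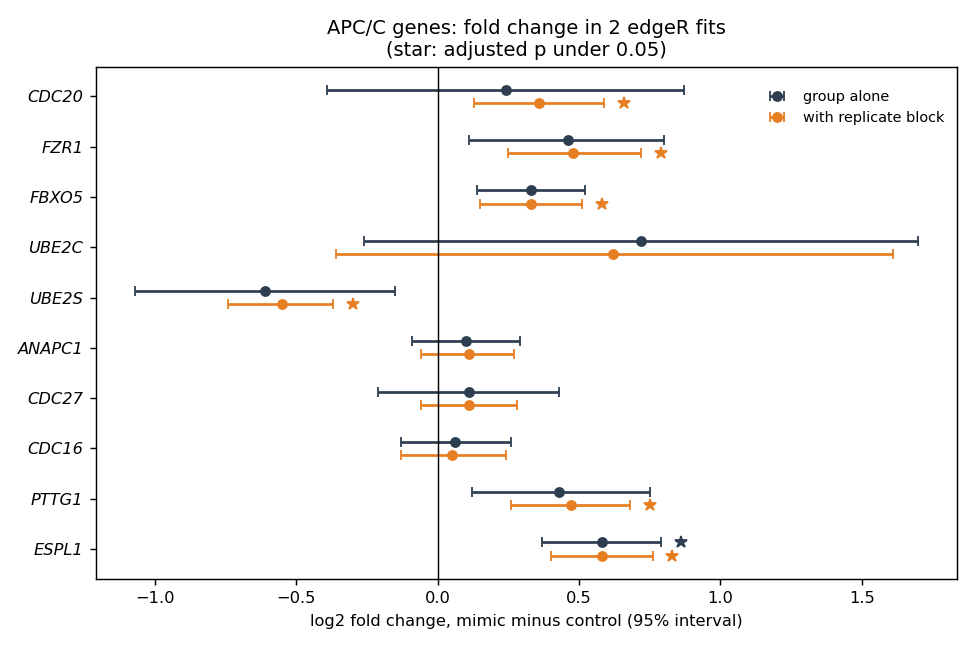
Log2 fold change, mimic minus control, of each gene (horizontal axis) with its 95% interval from edgeR's fit by group alone (dark) and with the replicate block (orange); a star marks an adjusted p under 0.05. UBE2S is the one gene on the negative side in both fits (-0.61 and -0.55), and only ESPL1 is starred in both.

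UBE2S, the enzyme that extends K11-linked ubiquitin chains on APC/C substrates (ENSG00000108106.13, chromosome 19, 55399745 to 55407777), had 176, 173 and 111 CPM in the controls and 101, 117 and 83.1 CPM with the mimic. It was lower with the mimic in each numbered pair (by -0.81, -0.57 and -0.41, log2), but the groups overlapped because scramble 3 lay below miR92a 2. The log2 fold change was -0.61 ± 0.20 by group alone (edgeR adjusted p = 0.225) and -0.55 ± 0.09 with the block (adjusted p = 0.000327). Left out of the group-alone fit, scramble 3 gave -0.80 (adjusted p = 0.0415). DESeq2 called the gene with all libraries (adjusted p = 0.0355) and limma-voom did not (0.246). The one gene of the 10 with a miR-92a-1-5p match in its 3′ UTR was the one that fell; the part of the site was not tested.

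UBE2C, the enzyme that starts the ubiquitin chain (ENSG00000175063.16, chromosome 20, 45812576 to 45816957), was almost not counted in these libraries. It had 16, 23 and 16 counts in the controls (0.734 ± 0.153 CPM, SD, n = 3) and 0, 31 and 35 with the mimic. In miR92a 1 a limit of 3 counts corresponds to 4.08 CPM, above the level in any other library, so the 0 counts there do not show a lower level. The gene was not called with all libraries (log2 fold change 0.72 ± 0.43, edgeR adjusted p = 0.544). Nor was it called by group alone without miR92a 1 (0.81 ± 0.35, edgeR adjusted p = 0.374). A ratio of UBE2C to UBE2S counts was also computed, but with 0 counts of UBE2C in miR92a 1 its value there is set by the 0.5 added to each count, so no comparison is made from it.

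The core subunits stayed close to their control levels. ANAPC1, the largest scaffold subunit (ENSG00000153107.12, chromosome 2, 111611639 to 111884690), had 199, 188 and 178 CPM in the controls and 208, 197 and 201 CPM with the mimic (log2 fold change 0.10 ± 0.08). CDC27 (APC3), whose repeat domain docks the coactivators (ENSG00000004897.11, chromosome 17, 47117703 to 47189422), had 222, 217 and 292 CPM against 233, 255 and 295 CPM (0.11 ± 0.14). CDC16 (APC6), a scaffold of the same repeat family (ENSG00000130177.15, chromosome 13, 114234887 to 114272723), had 104, 105 and 113 CPM against 117, 112 and 109 CPM (0.06 ± 0.09). All 3 overlapped between groups, and CDC27 was higher in both replicate 3 libraries. The 95% intervals of the group-alone fit reached from -0.09 to 0.29, -0.21 to 0.43 and -0.13 to 0.26. ANAPC1 and CDC16 were at 0.00 and -0.14 when all libraries were thinned to the depth of miR92a 1.

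**Figure D3:**
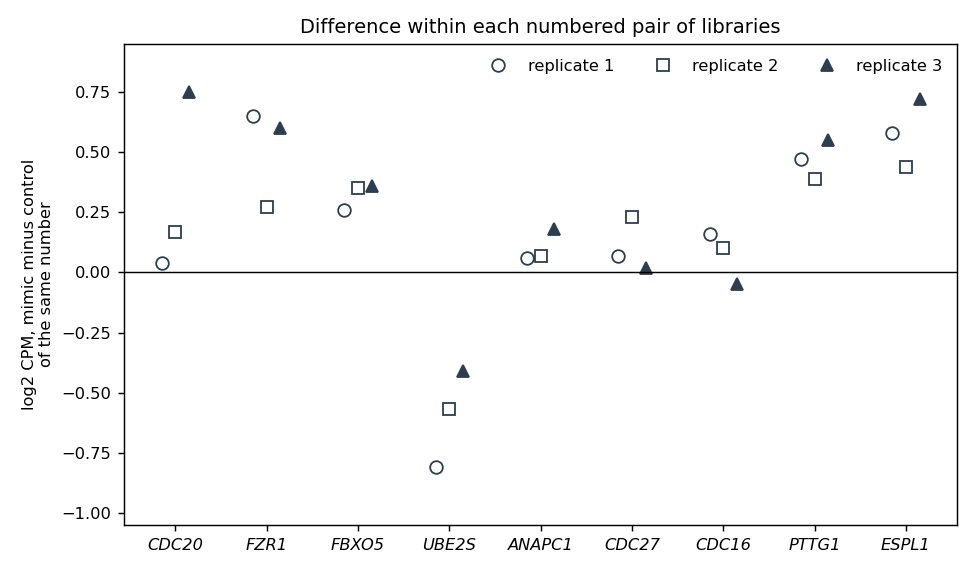
Difference in log2 CPM between the mimic and the control library of the same replicate number (vertical axis) for the 9 genes with counts in every library; open circles, open squares and filled triangles are replicates 1, 2 and 3. FZR1, FBXO5, PTTG1 and ESPL1 are at 0.26 or above in all 3 pairs, UBE2S is below 0 in all 3, and CDC20 has 0.04, 0.17 and 0.75.

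Levels between the genes were compared per length, as CPM per kb of the longest annotated transcript. In the controls CDC20 (62.9 ± 23.1, SD, n = 3), UBE2S (60.2 ± 14.4), CDC16 (48.5 ± 2.23), PTTG1 (44.1 ± 6.15) and CDC27 (42.0 ± 7.23) came first, and the ranges of neighbours in this order overlapped. FBXO5 (34.0 ± 0.809), ANAPC1 (22.8 ± 1.27), ESPL1 (20.1 ± 0.229) and FZR1 (7.29 ± 0.760) followed without overlap in the controls, and FBXO5 moved to 40.0 with the longest coding transcript. UBE2C was lowest, at 0.803 ± 0.167, far below its partner enzyme. With the mimic PTTG1 (60.9 ± 6.40, lowest 54.6) stood above UBE2S (39.4 ± 6.66, highest 45.9) without overlap, whereas in the controls the 2 ranges overlapped and UBE2S had the higher mean. This pair was chosen after its values were seen.

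Near-identical copies can share reads with these genes. Of 15 such loci sought, 12 were in the table: PTTG2, PTTG3P, CDC20P1, UBE2CP1, UBE2CP2, UBE2CP3, UBE2CP4, UBE2SP1, UBE2SP2, ANAPC1P1, CDC27P1 and CDC27P2. None had more than 12 counts in a library, and that highest count was of UBE2CP2 (5, 6 and 9 counts in the controls, 0, 12 and 10 with the mimic), beside 16 to 35 counts of UBE2C in the deep libraries.

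The rest of the pathway was read from 5 lists of named genes. Among 11 other APC/C subunits none passed in either fit, with a median log2 fold change of 0.07 (0 had an unadjusted p under 0.05; DESeq2 and limma-voom also called 0). Their 2 most abundant members were ANAPC5, a subunit of the platform (229 ± 13 and 240 ± 18.8 CPM), and ANAPC7, a repeat subunit (146 ± 3.09 and 149 ± 3.38 CPM).

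The mitotic checkpoint complex, which holds CDC20 inactive until chromosomes are attached, and its control genes had a median of 0.29, and all 10 genes were on the positive side. By group alone 1 rose: BUB3, the WD40 protein that carries BUB1 and BUBR1 to kinetochores, went from 152 ± 9.99 to 211 ± 10.5 CPM (0.47 ± 0.09, edgeR adjusted p = 0.0498). That call was lost without any of the 6 libraries (0.0645 to 0.229) and with scaling by total counts alone (0.0656). With the block 6 of 10 rose and none fell, against 4.57% and 6.7% of all tested genes, and 3, 2 and 5 rose without the replicate 1, 2 and 3 pair. Among the 6 were the kinase BUB1 and the pseudokinase BUB1B, both chosen after their values were seen (0.40 ± 0.08 and 0.34 ± 0.10).

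Substrates of the APC/C had the highest median of the 5 lists. Of 22 proteins known to be destroyed through the complex, transcripts of 16 rose and 0 fell with the block, against 4.57% and 6.7% of all tested genes. By group alone 1 rose, where 0.433% of all tested genes did. In that fit 14 had an unadjusted edgeR p under 0.05 and all 14 were higher, against 13.5% of all genes in either direction. The median of the list was 0.42. KIF22, a chromosome-arm kinesin, went from 123 ± 8.64 to 187 ± 7.79 CPM (0.59 ± 0.09, edgeR adjusted p = 0.0211). Its call was lost without each library except scramble 3 (up to 0.108), and after thinning to the depth of miR92a 1 the value was 0.32 (adjusted p = 0.471). Chosen after their values were seen, cyclin A2 (CCNA2) rose by 0.43 ± 0.08, cyclin B1 (CCNB1) by 0.50 ± 0.10 and the mitotic kinase AURKA by 0.58 ± 0.09 in the blocked fit. NEK2, a centrosome kinase, and SKP2, an F-box protein, were the 2 below 0 (-0.14 and -0.01), and neither passed. This list, like the other lists, was chosen with earlier results of these libraries known, so the counts of the lists are not independent evidence.

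Cohesin, the ring that separase opens, had 1 of 16 genes called each way with the block, near the shares of all tested genes given below. SMC1A, a core ATPase subunit of the ring, had 352, 356 and 340 CPM in the controls and 201, 180 and 213 CPM with the mimic. Its mean was 349 ± 8.27 CPM in the controls and 198 ± 17.1 CPM with the mimic, and it fell with a log2 value of -0.82 ± 0.09 (edgeR adjusted p = 0.00602), and passed without each library in turn (up to 0.0418). Its longest 3′ UTR, of 5954 bases, held 3 matches of 7 or 8 bases to miR-92a-1-5p. STAG2, a subunit that binds the ring, rose by 0.46 ± 0.08 with the block (group alone, adjusted p = 0.0753), and the other core subunits SMC3 and RAD21 had 0.15 and 0.14; these 3 were chosen after their values were seen. The 16 genes had a median of 0.08, with 1 lower and 0 higher by group alone (0.976% and 0.433% of all tested genes). With the block 1 was higher (6.25%) and 1 lower, against 4.57% and 6.7% of all tested genes. Of 11 other APC/C regulators 1 fell with the block and none rose, where 6.7% of all tested genes fell and 4.57% rose. The gene that fell was the phosphatase CDC14A (-0.60 ± 0.13, edgeR adjusted p = 0.00481, and 0.238 by group alone), from 47.9 ± 1.98 to 34.4 ± 10.2 CPM. Its lowest library was miR92a 3 (23.4 CPM), and the value was -0.36 in the blocked fit without the replicate 3 pair and -0.33 by group alone without miR92a 3.

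**Figure D4:**
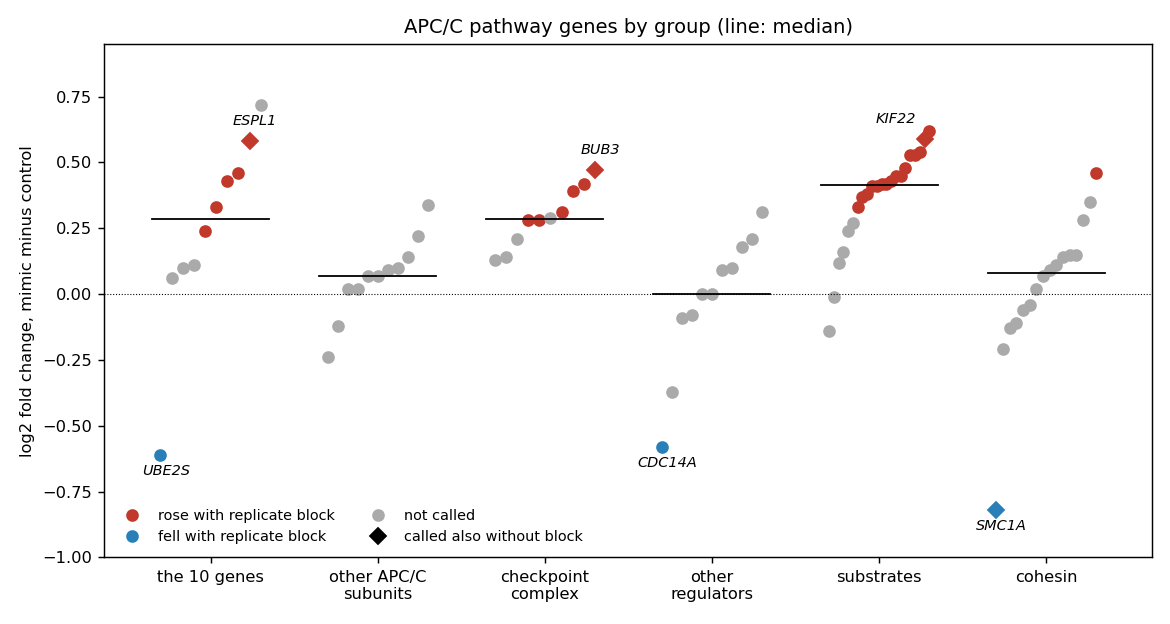
Log2 fold change by group alone (vertical axis) of each gene in 6 groups of APC/C pathway genes; red and blue mark genes that rose or fell with the replicate block, grey those not called, diamonds those also called by group alone, and lines the medians. The labelled genes below 0, UBE2S, CDC14A and SMC1A, are the 3 that fell in the blocked fit, while the line of the substrates is at 0.42.

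Over the 10 genes and the 5 lists together, 10 of 80 genes had a 7mer or 8mer match to miR-92a-1-5p in the 3′ UTR. With the block 3 of these 10 fell (SMC1A, CDC14A and UBE2S; by group alone SMC1A only), 0 rose and 7 were not called. Of the 70 without a match 28 rose, 0 fell and 42 were not called. Over all tested genes with an annotated UTR, 18.3% of the 2173 with a match fell and 1.93% rose with the block, and of the 10715 without one 5.0% fell and 5.44% rose. Among the 80 genes, the median log2 fold change by group alone was -0.11 for the 10 with a match and 0.24 for the 70 without. It was -0.01 for all tested genes. HDAC8, SGO1, STAG1, WAPL, ZWINT, BTRC and ANAPC16 were the 7 with a match and no call. No substrate was among the genes with a match, and the substrates gave 16 of the 28 rises. The lists were chosen with earlier results known, so this split depends on which genes were pooled. UTR length was not taken into account, and the part of the sites was not tested.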

How the data were processed

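Per the labels' protocols, the authors quantified paired-end reads with kallisto; the deposited values are expected counts for each symbol, whole numbers with no scaling. GRCh38 is named in the submitters' processing notes; the kallisto version, the annotation, the strand setting and how transcripts were summed to genes are not given in the sources used here. Columns were matched to samples by the names in the labels, and no other column was present. The 10 genes, the gene lists and the tests were chosen with earlier results of these data known.

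Counts were tested in R 4.3.3 with edgeR 4.0.16 (filterByExpr, TMM, quasi-likelihood F-test on group, Benjamini-Hochberg adjustment over 14543 genes, threshold 0.05); the standard error is the fold change divided by the square root of F. Alternatives used DESeq2 1.42.0, limma 3.58.1 (voom), other scalings and filters, the replicate block, thinning, and each library or pair left out. All 10 genes were named; of each list, up to 4 genes past the threshold by group alone, else with the block, else the 2 most abundant. Others are said to be chosen after their values were seen. Deviations from group means (log2 CPM, prior count 2) had a correlation in the numbered pairs of 0.37, 0.48 and 0.63 (4829 genes averaging 1000 counts or more) or of 0.15, 0.16 and 0.42 (every tested gene); the pairing comes from the replicate numbers and these correlations, not from a statement in the labels. For scramble 1 the value was higher with miR92a 2 (0.52) than with its own number, so the pairing of numbers 1 and 2 is not settled by these values. Scripts were checked on simulated counts. A marker list and the sequence of a site are not reported here. Sequences came from RefSeq tables and GENCODE release 29, which held 13656 of the tested symbols. These steps used Python 3.11.15, pandas 2.3.3 and matplotlib 3.10.9.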

Additional observations from a re-analysis of the deposited data

How the results depend on the processing

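The count of the 10 genes called higher was 1 by group alone, 5 with the replicate block, 0 to 1 with a library left out, and 4 to 5 in the blocked fit with a pair left out; the count called lower was 0, and 1 with the block, with DESeq2 and in each blocked fit with a pair left out, and 0 to 1 with a library left out. Over all genes 63 were higher and 142 lower by group alone, 664 and 975 with the replicate block, 140 and 247 with DESeq2, 31 and 77 after thinning, 14 to 53 and 56 to 148 with a library left out, and 486 and 751 in the blocked fit without replicate 1, 285 and 549 without replicate 2, and 554 and 866 without replicate 3. Checkpoint genes called higher were 6 with the block (3, 2 and 5 without replicate 1, 2 and 3), and 0 with total counts alone, after thinning and with any library left out. Substrates called higher were 16 with the block (13 to 15), 9 with DESeq2, 2 with no filter and 0 to 2 with a library left out. Cohesin genes called higher were 1 with the block (1 with each pair left out), 1 with DESeq2 and 0 to 1 with a library left out; other regulators called lower were 1 with the block, also with each pair left out. The cause was not tested, except that fits with libraries left out or thinned hold fewer samples or counts. CDC20 changed sign without scramble 3 (-0.04, range -0.04 to 0.41), ANAPC1 and CDC16 lost theirs after thinning (0.00 and -0.14), ANAPC5 without miR92a 3 (0.00, range 0.00 to 0.12), and the PTTG1 over ESPL1 ratio without miR92a 3 (0.03, range -0.22 to 0.03). Within pairs under the replicate block that ratio differed by -0.11 (exact sign-flip p = 0.25, the smallest possible). FZR1, FBXO5, PTTG1, ESPL1, UBE2S, UBE2C and CDC27 kept their direction in each alternative run. UBE2C had no value in 3 of 17 alternatives (DESeq2, a mean of at least 1 CPM, and thinning), and the planned protein motif search was not run. The depth of miR92a 1 limits genes with few counts.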

Other observations

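UBE2C is usually taken as an abundant transcript of dividing cells, yet it had at most 35 counts in any library here while UBE2S had 2074 to 4492 in the 5 deep libraries and the mitotic genes TPX2 and CENPF had 269 to 509 and 319 to 487 CPM. Whether reads of UBE2C were assigned elsewhere was not tested.

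Across the 6 libraries the genes whose log2 CPM followed CDC20 most closely, of 7775 genes with a mean of at least 20 CPM, were JUN (Pearson r = 0.997), UBALD2 (0.997), APMAP (0.995), PLOD3 (0.993) and RRP9 (0.993). JUN, an AP-1 transcription factor, had 61.5, 64.3 and 18.8 CPM in the controls and 66.7, 76.4 and 40.5 CPM with the mimic. Like CDC20 it was lowest in both replicate 3 libraries, and the points share library and depth. ESPL1 followed FBXO5 (r = 0.97) more closely than it followed CDC20 (0.32). The groups did not overlap in ESPL1 or in FBXO5, so their correlation over both groups also holds the group difference already described.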
